A study of Mus musculus with 18 samples.

Results

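The annexins are a family of proteins that bind phospholipid membranes when calcium is present. Of the 29437 genes with read counts, 8 belonged to the family described here, namely Anxa1, Anxa2, Anxa3, Anxa4, Anxa5, Anxa6, Anxa7 and Anxa11, taken by gene name from the deposited table. All 8 passed the filter on low counts and were among the 16325 genes tested. The members were chosen by gene name alone, but the family was selected on read counts of these libraries already analysed, the lower level of Anxa6 in stem cells without Helios among them. The KO against WT values in LT-HSC therefore describe the members and are not independent support.

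Poly(A) RNA was sequenced from bone marrow cells of mice aged 10 weeks, 3 wild type (WT) and 3 knocked out for Helios (KO). Helios, the product of Ikzf2, is a DNA-binding zinc finger protein related to Ikaros. All sorted cells were lineage-negative, Sca1+ and Kit+. Among them the long-term stem cells (LT-HSC) were CD48- CD150+, whereas the multipotent progenitors were CD48+ CD150-, Flt3- for the myeloid-biased MPP3 and Flt3+ for the lymphoid-biased MPP4. This gave 6 groups of 3 libraries. The labels do not say which exons the KO allele lacks, or whether the loss was limited to blood cells.

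Annexins share a conserved core that docks on acidic phospholipids such as phosphatidylserine, and they differ in their N-terminal tails, which bind partner proteins. Through these contacts they take part in membrane repair, vesicle traffic, the link between membrane and actin, and, for members that reach the cell surface, inflammation and clotting. In blood cells Anxa1 is known as an anti-inflammatory protein of granulocytes and monocytes. Anxa5 is best known as the reagent that detects phosphatidylserine on dying cells and activated platelets.

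Total counts were 21053050 to 45410959 reads per library. The libraries numbered 1 had reads on fewer genes (17362 to 18896) than those numbered 2 or 3 (19185 to 20272), and each group held 1 of each number. Within each population the Ikzf2 levels of KO and WT did not overlap, KO being lower, and 95 to 640 reads remained in the KO libraries. Among the gate genes, Cd48 stood at 2.47 to 10.4 CPM in LT-HSC and 230 to 415 CPM in the progenitors, and Flt3 at 57.1 to 114, 553 to 876 and 2705 to 3640 CPM in LT-HSC, MPP3 and MPP4. CPM, the usual read count scaled to library size, are given after normalization by the trimmed mean of M values (TMM). Some libraries held transcripts of mature cells. The summed level of 11 mature neutrophil genes was 75.3 and 235 CPM in LT-HSC WT 2 and WT 3 and 2.83 to 8.5 CPM in the other 4 LT-HSC libraries. The summed level of 8 plasma cell genes was 2930 to 3780 CPM in MPP3 WT 1, WT 2 and KO 1. It was 96.6 to 196 CPM in the other 3 MPP3 libraries. In the MPP4 libraries this sum was 715 to 1427 CPM, with Ighm at 638 to 1251 CPM and Jchain at most 1.19 CPM. In bulk samples a change in the make-up of the sorted cells and a change in RNA per cell cannot be told apart.

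The promoters of Anxa2 and Anxa5 are shown because these members differed in opposite directions between LT-HSC and the progenitors. Each is 250 bases before to 50 bases after the start of transcription, from RefSeq (GRCm38.p6), written 5′ to 3′ on the strand of the gene. Anxa2 lies at chr9:69453433-69453732 on the plus strand and Anxa5 at chr3:36475838-36476137 on the minus strand. Capitals mark the letters TGGGAA, which contain the GGGAA core bound by Ikaros family proteins. GGGAA without a T before it was neither marked nor counted. Read on either strand, it also occurs elsewhere in the Anxa2 window, in the Anxa1 promoter and in an Anxa7 promoter. The promoters of Anxa1 and Anxa7 are not printed.
Anxa2: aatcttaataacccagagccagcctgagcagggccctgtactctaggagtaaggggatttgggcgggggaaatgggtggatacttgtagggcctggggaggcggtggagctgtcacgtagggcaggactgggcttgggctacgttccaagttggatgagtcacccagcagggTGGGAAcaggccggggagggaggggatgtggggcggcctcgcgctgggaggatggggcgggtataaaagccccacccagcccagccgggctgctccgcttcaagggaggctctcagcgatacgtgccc
Anxa5: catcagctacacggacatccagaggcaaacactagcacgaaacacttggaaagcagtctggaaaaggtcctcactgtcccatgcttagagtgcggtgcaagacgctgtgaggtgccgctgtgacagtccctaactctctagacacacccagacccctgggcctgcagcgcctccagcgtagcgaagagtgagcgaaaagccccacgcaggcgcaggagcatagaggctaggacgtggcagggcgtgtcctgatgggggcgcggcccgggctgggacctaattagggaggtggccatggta
TGGGAA was searched on both strands, as TGGGAA and TTCCCA. It was found in 1 of the 8 promoters listed for 6 of the members, that of Anxa2, and in 8397 of all 32851 promoters of the same length (25.6%). A match is a description of the letters and not a binding site. The Anxa2 window held 13 CG pairs and the Anxa5 window 16, against a median of 7 over all promoters. Anxa3 and Anxa6 are named only.

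Levels were compared between annexins per kb of the longest coding transcript in GENCODE M21, as mean ± SD (n = 3). In LT-HSC WT, Anxa5 led at 189 ± 26.6 CPM per kb, and its libraries did not overlap those of the next member, Anxa1, at 83.6 ± 4.67 CPM per kb. Anxa6 followed at 74.2 ± 4.33 and Anxa4 at 66.7 ± 12.9 CPM per kb, and the ranges of Anxa1 and Anxa6, and of Anxa6 and Anxa4, overlapped. Anxa7 at 50.4, Anxa2 at 35, Anxa11 at 12.8 and Anxa3 at 2.85 CPM per kb came next, each below the range of the one before.

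In MPP3 WT, Anxa5 stood at 134 ± 19.3, Anxa1 at 120 ± 20.4 and Anxa2 at 105 ± 1.21 CPM per kb, and these neighbours overlapped. Anxa6 at 89, Anxa4 at 70.4 and Anxa7 at 40.9 CPM per kb followed without overlap. Anxa3 at 17.1 and Anxa11 at 12.9 CPM per kb came last and overlapped. In MPP4 WT the first 5 members lay close together, Anxa6 at 105 ± 12.2, Anxa1 at 89.3 ± 12.8, Anxa2 at 86.7 ± 15.6, Anxa5 at 78 ± 14.2 and Anxa4 at 77.9 ± 12.4 CPM per kb, and each overlapped the next. Anxa7 at 33.9 CPM per kb lay below all 5, and Anxa3 at 15.9 and Anxa11 at 14.5 CPM per kb overlapped. The order rests on the length used. With the median transcript length of the authors' deposited table, which for Anxa1 and Anxa5 is 578 and 567 bases, Anxa1 led MPP4 WT at 258 CPM per kb and Anxa6 came sixth at 106 CPM per kb.

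In LT-HSC KO the order was the same apart from Anxa6. It stood at 44.4 ± 5.32 CPM per kb, behind Anxa4 at 66.3 ± 3.9 and overlapping Anxa7 at 44.7 ± 1.67 CPM per kb. In MPP3 KO, as in MPP3 WT, Anxa5, Anxa1 and Anxa2 led, at 156, 126 and 99.9 CPM per kb. In MPP4 KO, Anxa6, Anxa1, Anxa5 and Anxa2 stood at 108, 99.4, 95.2 and 94.5 CPM per kb, each overlapping the next. The summed level of the 8 genes was 884 to 1183 CPM over all 18 libraries.

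**Figure D1:**
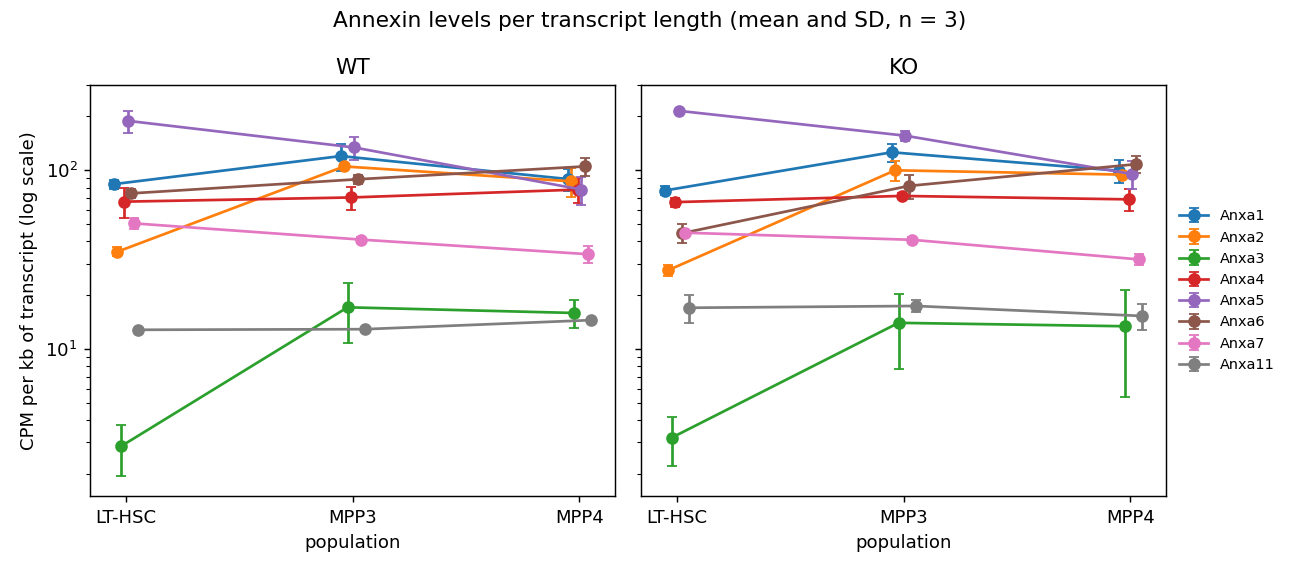
Level of each annexin in CPM per kb of its longest coding transcript (log axis) in LT-HSC, MPP3 and MPP4, for WT and KO; points are means and whiskers SD of 3 libraries. Anxa5 is the highest member in LT-HSC at 189 CPM per kb in WT, and 5 members lie between 77.9 and 105 CPM per kb in MPP4 WT.

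The WT populations were compared to ask how the family differs between stem cells and progenitors. In MPP3 against LT-HSC, 3 annexins rose (Anxa1, Anxa2 and Anxa3) and 2 fell (Anxa5 and Anxa7), at an edgeR adjusted p under 0.05, beside 9.68% of all genes called higher and 7.66% called lower. In MPP4 against LT-HSC, 3 rose (Anxa2, Anxa3 and Anxa6) and 2 fell (Anxa5 and Anxa7), beside 14.1% and 13.1% of all genes. In MPP4 against MPP3, Anxa5 fell and 0 rose, beside 2.62% of all genes lower and 2.19% higher. The median log2 fold change of the 8 members was 0.17, 0.20 and -0.19 in the 3 comparisons. Over all genes it was -0.0007, -0.0131 and -0.0101. Each population enters a pair of these comparisons, so they are not independent of each other. The WT ranges did not overlap for 6 of 8 members in MPP3 against LT-HSC, for 6 in MPP4 against LT-HSC and for 4 in MPP4 against MPP3, beside 35.5%, 40.9% and 20.8% of all genes.

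**Figure D2:**
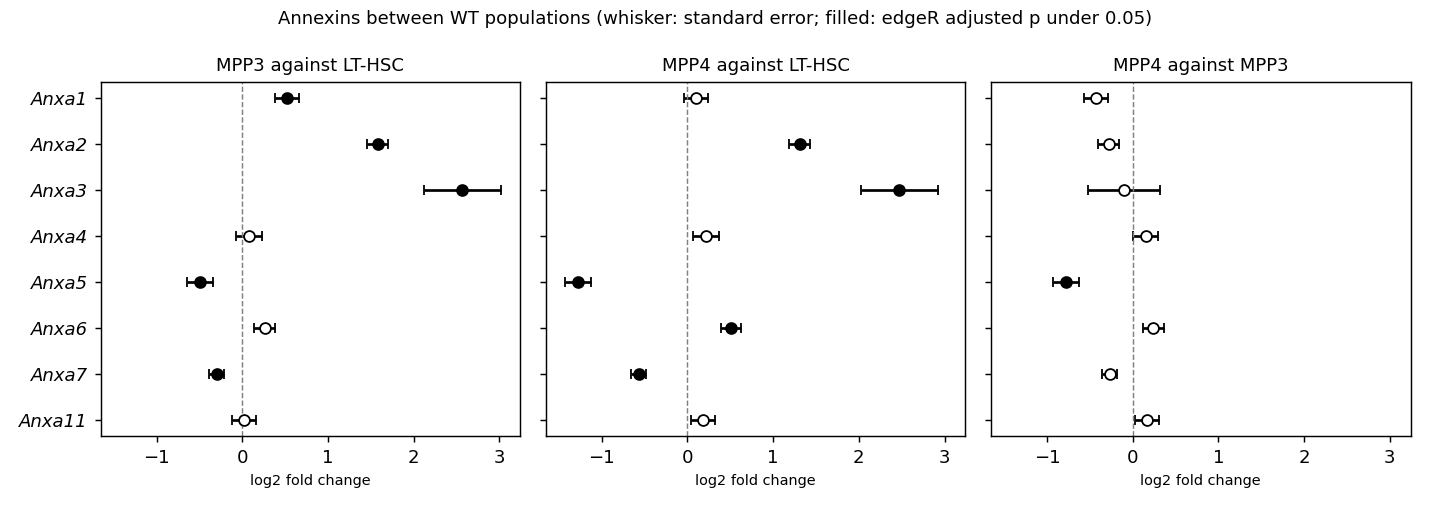
Log2 fold change of each annexin between WT populations, with its standard error; filled points passed an edgeR adjusted p under 0.05 over all genes tested. Anxa2 and Anxa3 lie right of 0 in both progenitors against LT-HSC, by 1.31 to 2.57, and Anxa5 lies left of 0 in all 3 panels.

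Anxa2 forms a complex with S100a10 that carries plasminogen and its activator on the cell surface. The gene (ENSMUSG00000032231) lies at chr9:69453620-69491795 on the plus strand (mm10). Libraries 1, 2 and 3 of LT-HSC WT held it at 52.3, 47.1 and 52.4 CPM. It was 151, 151 and 154 CPM in MPP3 WT and 103, 148 and 125 CPM in MPP4 WT. All 6 progenitor libraries lay above all 3 LT-HSC libraries, and all 3 MPP4 libraries lay below the MPP3 libraries. The log2 fold change was 1.58 ± 0.12 in MPP3 (3-fold, edgeR adjusted p = 4.11e-07) and 1.31 ± 0.12 in MPP4 (2.48-fold, edgeR adjusted p = 9.24e-07). MPP4 against MPP3 stood at -0.28 ± 0.12 and was not called (edgeR adjusted p = 0.292).

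Anxa3 is an annexin of myeloid cells, found on the granules of human neutrophils. The gene (ENSMUSG00000029484) lies at chr5:96793339-96845966 on the plus strand. It had 3.20, 4.38 and 6.06 CPM in LT-HSC WT, 17.8, 37.6 and 26.3 CPM in MPP3 WT and 25.4, 20.9 and 29.9 CPM in MPP4 WT. Every progenitor library was higher than every LT-HSC library, while MPP3 and MPP4 overlapped. It rose 5.95-fold in MPP3 (log2 2.57 ± 0.45, edgeR adjusted p = 0.00106) and 5.55-fold in MPP4 (log2 2.47 ± 0.45, edgeR adjusted p = 0.000659). MPP4 against MPP3 stood at -0.10 ± 0.42 (edgeR adjusted p = 0.989). Anxa3 was the least precise member, with 82 to 946 reads per library. Its coefficient of variation between replicates was 17.6% to 59.8% by group, against 3.77% to 9.17% from counting alone.

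Within LT-HSC WT, Anxa3 was highest in library 3 and lowest in library 1, and so was the sum of the neutrophil genes, at 3.86 CPM in WT 1. WT 3 had 6.06 CPM of Anxa3, below all MPP3 and MPP4 libraries. The part of neutrophil transcripts in these levels was not tested.

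Anxa5 binds phosphatidylserine on the outside of the cell. The gene (ENSMUSG00000027712) lies at chr3:36448923-36475894 on the minus strand. It had 349, 359 and 275 CPM in LT-HSC WT, 248, 255 and 194 CPM in MPP3 WT and 130, 162 and 113 CPM in MPP4 WT. The 3 populations did not overlap, and library 3 was the lowest and library 2 the highest in each of them. Anxa5 fell by 0.49 ± 0.15 on the log2 scale in MPP3 (edgeR adjusted p = 0.0318) and by 1.28 ± 0.15 in MPP4 (2.43-fold lower, edgeR adjusted p = 1.04e-05). From MPP3 to MPP4 it fell by 0.78 ± 0.15 (1.72-fold lower, edgeR adjusted p = 0.00424). Without MPP3 WT 1, WT 2 and KO 1, which held plasma cell transcripts, MPP3 WT is 1 library, which the fit assumes to vary like the other groups. The MPP4 against MPP3 value was then -0.52 (edgeR adjusted p = 0.443) and the MPP3 against LT-HSC value -0.75 (edgeR adjusted p = 0.061). The MPP3 against LT-HSC call was also lost without LT-HSC WT 1 or WT 2 or MPP3 WT 1 or WT 3 (-0.43, -0.42, -0.54 and -0.38), whereas the MPP4 against LT-HSC call held under each alternative run.

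Anxa7, also called synexin, promotes membrane fusion and binds the calcium sensor sorcin. The gene (ENSMUSG00000021814) lies at chr14:20455260-20480133 on the minus strand. It had 149, 155 and 136 CPM in LT-HSC WT, 124, 117 and 116 CPM in MPP3 WT and 110, 96.4 and 89.2 CPM in MPP4 WT. Like Anxa5, it stepped down from LT-HSC to MPP3 to MPP4 with no overlap. It fell by 0.30 ± 0.09 on the log2 scale in MPP3 (edgeR adjusted p = 0.0364) and by 0.57 ± 0.09 in MPP4 (edgeR adjusted p = 0.000254). MPP4 against MPP3 stood at -0.27 ± 0.09 and was not called (edgeR adjusted p = 0.132). The MPP3 against LT-HSC call of Anxa7 was lost in each fit without 1 LT-HSC WT or MPP3 WT library except that without LT-HSC WT 3, with an edgeR adjusted p of up to 0.127, and also with no filter on low counts (edgeR adjusted p = 0.0794) and with the compared groups alone (edgeR adjusted p = 0.0654).

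Anxa1 is released by leukocytes and acts on formyl peptide receptors to end inflammation. The gene (ENSMUSG00000024659) lies at chr19:20373428-20390944 on the minus strand. It had 142, 146 and 131 CPM in LT-HSC WT, 211, 229 and 163 CPM in MPP3 WT and 152, 169 and 127 CPM in MPP4 WT. MPP3 was higher than LT-HSC in every library, whereas MPP4 overlapped both other populations, and within each population library 3 was the lowest. It rose 1.44-fold in MPP3 against LT-HSC (log2 0.52 ± 0.14, edgeR adjusted p = 0.017), and MPP4 against LT-HSC stood at 0.10 ± 0.14 (edgeR adjusted p = 0.667). The MPP4 against MPP3 value of -0.43 ± 0.14 was not called (edgeR adjusted p = 0.108), but it was by DESeq2 (DESeq2 adjusted p = 0.0467). With MPP3 WT 3 as the 1 MPP3 WT library, the MPP3 against LT-HSC value was 0.23 (edgeR adjusted p = 0.526), again with the spread taken from the other groups, and that call was also lost without LT-HSC WT 3, MPP3 WT 1 or MPP3 WT 2 alone (0.48, 0.49 and 0.42).

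Anxa6 carries a duplicated annexin core and acts on endosomes, cholesterol transport and Ras signalling. Its coding sequence of 2019 bases compares with 957 to 1509 bases in the other 7 members. The gene (ENSMUSG00000018340) lies at chr11:54979108-55033445 on the minus strand, in a transcript of 26 exons, and no other annotated gene overlaps it. It had 179, 197 and 178 CPM in LT-HSC WT, 233, 224 and 208 CPM in MPP3 WT and 293, 262 and 232 CPM in MPP4 WT. LT-HSC lay below both progenitors, and the lowest MPP4 library lay just under the highest MPP3 library. The log2 fold change was 0.51 ± 0.12 in MPP4 against LT-HSC, which was called (edgeR adjusted p = 0.00619). It was 0.26 ± 0.12 in MPP3 against LT-HSC (edgeR adjusted p = 0.159) and 0.24 ± 0.12 in MPP4 against MPP3 (edgeR adjusted p = 0.402), which were not. With LT-HSC WT 1 as the 1 LT-HSC WT library, and the spread taken from the other groups, the MPP4 value was 0.53 (edgeR adjusted p = 0.0677).

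Anxa4, an annexin of epithelial cells that also acts in membrane repair, and Anxa11, which ties RNA granules to lysosomes, were not called between WT populations. Anxa4 (ENSMUSG00000029994, chr6:86736840-86793584, minus strand) had 135 ± 26.2, 143 ± 20.8 and 158 ± 25.3 CPM in LT-HSC, MPP3 and MPP4. Within each WT population library 1 was the highest and library 3 the lowest. Anxa11 (ENSMUSG00000021866, chr14:25842156-25886804, plus strand) had 30.6 ± 0.174, 31 ± 1.09 and 34.7 ± 0.431 CPM. The WT spread of Anxa11 was as small as, or smaller than, counting alone gives on average, with a coefficient of variation of 0.567%, 3.51% and 1.24% against 3.34%, 3.56% and 3.2%.

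**Figure D3:**
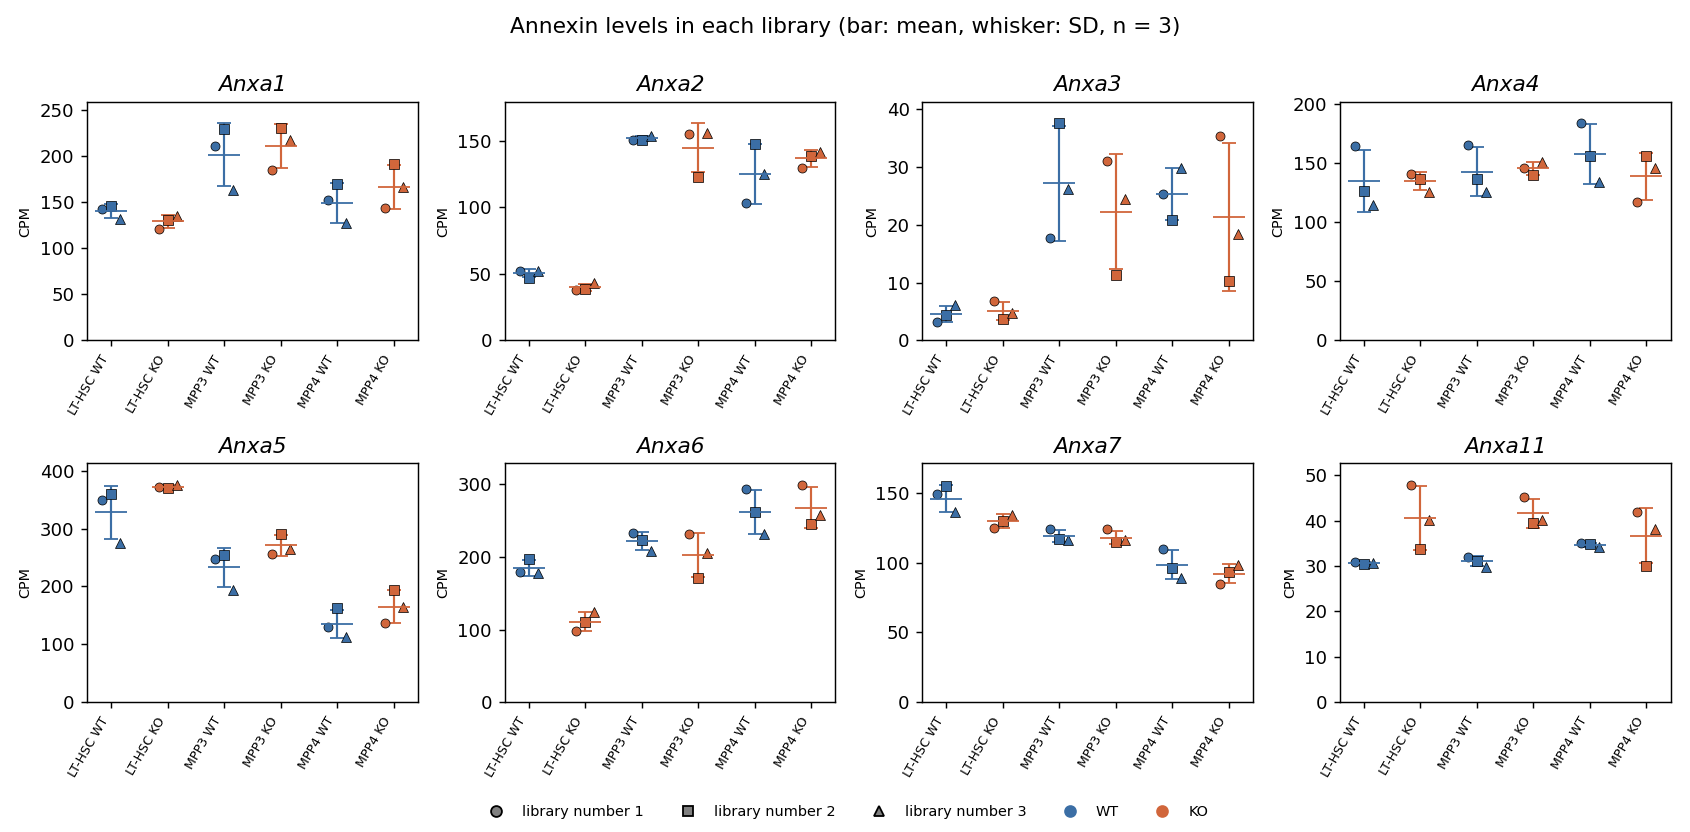
CPM of each annexin in every library (circle, square and triangle for libraries 1, 2 and 3; blue WT, orange KO), with the group mean and SD (n = 3); all axes start at 0. In LT-HSC, Anxa6 lies at 97.5 to 124 CPM in KO, below all WT libraries at 178 to 197 CPM.

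KO and WT were compared in each population to ask which annexins differ there without Helios. In LT-HSC, 1 of the 8 annexins was called, Anxa6, which was lower in KO, beside 0.0613% of all genes called (10 genes). In MPP3 and in MPP4 the edgeR test called 0 of 8, beside 0.00613% and 0.0123% of all genes. Ikzf2 itself was called in LT-HSC (log2 fold change -2.07 ± 0.33, edgeR adjusted p = 0.0259). It was not called in MPP3 (-1.24 ± 0.32, edgeR adjusted p = 0.66) or MPP4 (-1.98 ± 0.33, edgeR adjusted p = 0.0656). The authors' deposited adjusted p for Ikzf2 was 0.0487 in MPP3 and 5.7e-06 in MPP4. Their lowest for an annexin in these populations was 0.298, for Anxa11 in MPP3. A missing edgeR call in MPP3 or MPP4 therefore does not show that an annexin was unchanged. At an unadjusted p under 0.05 there were 3 members in LT-HSC (Anxa2, Anxa6 and Anxa11), 1 in MPP3 (Anxa11) and 0 in MPP4, beside 11.2%, 4.59% and 4.0% of all genes. DESeq2 called the same 1 member in LT-HSC and 0 in MPP3 and MPP4, beside 1.34%, 0.223% and 0.225% of all genes. Limma voom also called Anxa6 in LT-HSC and 0 members in MPP3 and MPP4, beside 33, 2 and 3 of all 16325 genes. The median log2 fold change of the members was -0.06, 0.01 and 0.05, and that of all genes 0.0148, 0.0045 and 0.0022.

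In LT-HSC, Anxa6 had 179, 197 and 178 CPM in WT against 97.5, 110 and 124 CPM in KO. All 3 KO libraries were lower than all 3 WT libraries, with a mean of 111 ± 13.2 CPM against 185 ± 10.8 CPM. The log2 fold change was -0.74 ± 0.12 (1.67-fold lower), and its edgeR adjusted p of 0.0402 is part of how the family was chosen. In MPP3 it had 233, 224 and 208 CPM in WT and 232, 171 and 206 CPM in KO, and the genotypes overlapped (log2 fold change -0.12 ± 0.12, edgeR adjusted p = 1). In MPP4 it had 293, 262 and 232 CPM in WT and 299, 245 and 258 CPM in KO, which overlapped as well (0.03 ± 0.12, edgeR adjusted p = 1).

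The difference of the KO effect on Anxa6 between populations was tested directly. It was 0.77 ± 0.18 for MPP4 minus LT-HSC (unadjusted p = 0.000445, edgeR adjusted p = 0.497) and 0.61 ± 0.18 for MPP3 minus LT-HSC (unadjusted p = 0.00287, edgeR adjusted p = 1). Neither passed over all genes, where edgeR called 0 genes in any of these differences, with 1086 and 602 genes at an unadjusted p under 0.05. DESeq2 called 32 and 4 genes there (0.213% and 0.0245%), and Anxa6 passed by it for MPP4 minus LT-HSC (0.79, DESeq2 adjusted p = 0.0211). Both differences use the LT-HSC values that brought Anxa6 forward.

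The LT-HSC call of Anxa6 was sensitive to the libraries used, while its size was less so. Leaving out any 1 of the 6 LT-HSC libraries gave -0.83 to -0.65 with edgeR adjusted p from 0.0633 to 0.203, so none of these fits called it. The libraries numbered 2 and 3 alone gave -0.68 (edgeR adjusted p = 0.094). Without WT 2 and WT 3, which held neutrophil transcripts, the WT arm is 1 library, assumed to vary like the other groups, and the value was -0.71 (edgeR adjusted p = 0.0958). WT 1, at 179 CPM with neutrophil genes at 3.86 CPM in sum, lay above all KO libraries. The summed level of 8 megakaryocyte and platelet genes was 985 to 1228 CPM in LT-HSC WT and 1668 to 2262 CPM in KO. Among the KO libraries Anxa6 was lowest in KO 1, where that sum was highest. The other KO libraries did not follow this order. KO 2 had the lowest sum, 1668 CPM, with Anxa6 at 110 CPM, and KO 3 had 1928 CPM with Anxa6 at 124 CPM. The part of these transcripts in the level of Anxa6 was not tested. The authors' deposited table lists a log2 fold change of -0.744 for Anxa6 in LT-HSC, with an adjusted p of 6.78e-06. That comparison is of the same LT-HSC libraries, so it is not independent support.

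**Figure D4:**
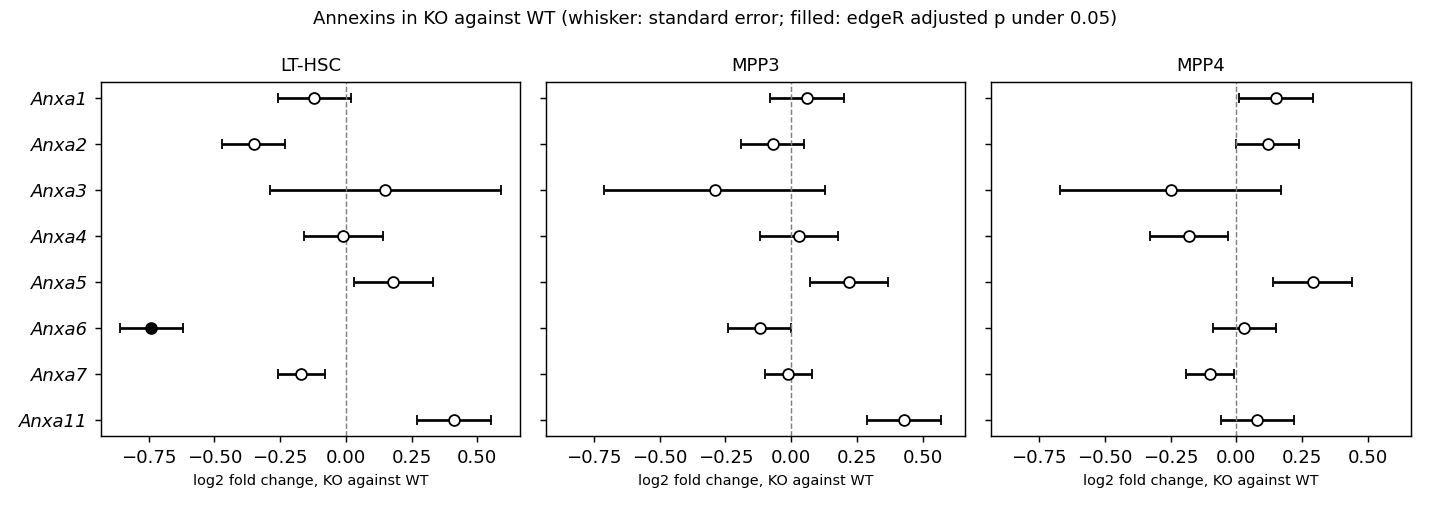
Log2 fold change of each annexin in KO against WT, with its standard error, in LT-HSC, MPP3 and MPP4; filled points passed an edgeR adjusted p under 0.05 over all genes tested. Anxa6 in LT-HSC, at -0.74, is the only filled point, and Anxa11 stands at 0.41 and 0.43 in LT-HSC and MPP3.

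Anxa11 was on the higher side in KO in LT-HSC and MPP3 without passing the test. In LT-HSC it had 30.8, 30.4 and 30.6 CPM in WT and 47.8, 33.7 and 40.2 CPM in KO. In MPP3 it had 31.9, 31.1 and 29.8 CPM in WT and 45.2, 39.4 and 40.1 CPM in KO. All KO libraries lay above all WT libraries in both populations. Non-overlapping ranges were found for 15.3% of all genes in LT-HSC and 10.6% in MPP3. The log2 fold change was 0.41 ± 0.14 in LT-HSC (unadjusted p = 0.0108, edgeR adjusted p = 0.316) and 0.43 ± 0.14 in MPP3 (unadjusted p = 0.00832, edgeR adjusted p = 0.895). In MPP4 it had 35.0, 34.9 and 34.2 CPM in WT and 41.8, 30.0 and 38.2 CPM in KO, which overlapped (0.08 ± 0.14, edgeR adjusted p = 1). KO library 1 was the highest and KO 2 the lowest in each population. Anxa11 overlaps Anxa11os on the opposite strand, and the sources used here do not give the strand setting of the counting, so its counts are uncertain. Anxa11os had 0 to 121 reads per library where Anxa11 had 646 to 1428. Anxa1, Anxa2 and Anxa4 also overlap a gene on the opposite strand (1500015L24Rik, Gm16144 and Gm44036). Anxa9, described below, overlaps Mindy1 in this way. The same uncertainty holds for the counts of these annexins.

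Anxa2 had 52.3, 47.1 and 52.4 CPM in LT-HSC WT and 37.8, 38.9 and 43.0 CPM in LT-HSC KO. The KO libraries were all lower, but the log2 fold change of -0.35 ± 0.12 did not pass (edgeR adjusted p = 0.32). It stood at -0.07 ± 0.12 in MPP3 and 0.12 ± 0.12 in MPP4, where the genotypes overlapped.

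Anxa5 was on the higher side in KO in each population, with no call. It had 371, 370 and 375 CPM in LT-HSC KO, 256, 291 and 265 CPM in MPP3 KO and 136, 194 and 165 CPM in MPP4 KO. These lay above all WT libraries in LT-HSC and MPP3 and overlapped WT in MPP4. The log2 fold changes were 0.18 ± 0.15, 0.22 ± 0.15 and 0.29 ± 0.15 (edgeR adjusted p = 0.713, 1 and 1). WT library 3 was the lowest of its group for Anxa5 in all 3 populations. The summed level of 6 erythroid genes was highest in WT 3 each time, at 18.3, 38.2 and 25.2 CPM. In WT 1 and WT 2 it was 4.2 to 11.8 CPM. The sum of 10 macrophage and dendritic cell genes was also highest in WT 3 each time. It was 92, 86.2 and 64.9 CPM there, against 31.3 to 71.1 CPM in WT 1 and WT 2. The part of these transcripts was not tested.

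Anxa7 had 125, 130 and 134 CPM in LT-HSC KO, below all WT libraries, with a log2 fold change of -0.17 ± 0.09 that did not pass (edgeR adjusted p = 0.518). In MPP3 and MPP4 it stood at -0.01 ± 0.09 and -0.10 ± 0.09, with overlapping ranges. Anxa1, Anxa3 and Anxa4 overlapped between genotypes in all 3 populations, with log2 fold changes from -0.29 to 0.15. Anxa3 in KO was highest in library 1 and lowest in library 2 in each population. In MPP3 KO it had 31.0, 11.3 and 24.5 CPM and in MPP4 KO 35.4, 10.3 and 18.5 CPM, a wider spread than between the genotypes. By non-overlapping ranges, 2 members were higher and 3 lower in LT-HSC KO, 2 were higher in MPP3 KO and 0 differed in MPP4, beside 15.3%, 10.6% and 7.98% of all genes.

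Of the other annexins sought, Anxa9 is in the table and was tested. It is a member whose human form has lost the usual calcium sites of the core. It stood at 14.9 to 26.7 CPM over the libraries and was called in 1 comparison, lower in MPP4 WT at 16.4 ± 1.79 CPM than in MPP3 WT at 25.4 ± 1.12 CPM (log2 fold change -0.63 ± 0.16, edgeR adjusted p = 0.0321). That call was lost without MPP3 WT 1, WT 2 or WT 3 or without MPP4 WT 1 or WT 3. Anxa8, Anxa10 and Anxa13 were not analysed here.

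Partners of the annexins and genes that act beside them were taken from 8 lists with 42 genes, Anxa9 among them, of which 35 are in the table and 29 were tested. In KO against WT edgeR called 0 of the 29 in each population, with 4, 0 and 0 at an unadjusted p under 0.05, where all genes had the shares of 11.2%, 4.59% and 4.0% given above. DESeq2 called 1 (Cpne5), 0 and 0, and limma voom 0 in each. Cpne5 was near the floor, at 0.211 ± 0.231 CPM in LT-HSC KO and 0 CPM in LT-HSC WT. Its ranges overlapped and edgeR did not call it (edgeR adjusted p = 0.201). Between WT populations 3 rose and 4 fell in MPP3 against LT-HSC, 3 rose and 8 fell in MPP4 against LT-HSC, and 1 rose and 3 fell in MPP4 against MPP3. Of all genes, 9.68%, 14.1% and 2.19% were called higher and 7.66%, 13.1% and 2.62% lower in these comparisons.

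Among the small calcium-binding partners, S100a10, which pairs with Anxa2, moved the same way as Anxa2 between WT populations. It rose from 76.2 ± 8.93 CPM in LT-HSC WT to 140 ± 13.7 CPM in MPP3 WT (log2 0.88 ± 0.12, edgeR adjusted p = 0.000129) and to 114 ± 7.11 CPM in MPP4 WT (0.57 ± 0.12, edgeR adjusted p = 0.00198). S100a6, another small calcium-binding protein that can bind annexins, fell in MPP4 against LT-HSC, by 0.95 ± 0.22 (edgeR adjusted p = 0.00401). Pdcd6, a calcium sensor that binds Anxa11, had 117 ± 2.86 CPM in LT-HSC WT and 139 ± 14 CPM in LT-HSC KO. It was not called (0.25 ± 0.09, edgeR adjusted p = 0.348). In that comparison all 6 of the small calcium-binding partners, S100a10 included, stood above 0 without a call, while Anxa2 stood at -0.35. Of the plasminogen genes Plaur, the urokinase receptor, was the 1 tested and did not pass in MPP3 against LT-HSC (0.68, edgeR adjusted p = 0.0647). Fpr1, a formyl peptide receptor, had a mean of at most 1.09 CPM in any group.

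Among the membrane repair genes, Capn1, a calcium-activated protease, rose from 23.5 ± 8.2 CPM in LT-HSC WT to 47.2 ± 6.17 CPM in MPP3 WT and 57.3 ± 6.89 CPM in MPP4 WT (edgeR adjusted p = 0.00438 and 0.000319). Myof, encoding the membrane protein myoferlin, was lower in MPP3 WT at 37.8 ± 9.73 CPM than in LT-HSC WT at 88.6 ± 20.7 CPM or MPP4 WT at 90.8 ± 18.3 CPM (edgeR adjusted p = 0.00116 and 0.0018).

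Of 7 genes that move phosphatidylserine between the leaflets of the plasma membrane, 1 fell in MPP3 and 3 fell in MPP4 against LT-HSC. This stood beside 7.66% and 13.1% of all genes called lower. Of the 7, 0 rose, beside 9.68% and 14.1% of all genes called higher. The scramblase gene Ano6 fell from 205 ± 20.3 CPM in LT-HSC WT to 126 ± 24 CPM in MPP4 WT (edgeR adjusted p = 0.00216). Plscr1 fell from 45.8 ± 4.35 CPM in LT-HSC WT to 13.9 ± 1.62 CPM in MPP4 WT (edgeR adjusted p = 2.48e-06). Atp11a, a flippase that returns phosphatidylserine to the inner leaflet, fell from 86.8 ± 32.3 CPM in LT-HSC WT to 47 ± 3.89 CPM in MPP3 WT and 31.1 ± 1.6 CPM in MPP4 WT (edgeR adjusted p = 0.0195 and 0.000287). Its MPP3 call was lost without LT-HSC WT 2 or WT 3 or without MPP3 WT 1 or WT 2.

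Copines are a separate family of calcium-dependent phospholipid-binding proteins. Cpne8 stood at 34.9 ± 8.49 CPM in LT-HSC WT and at 0.797 ± 0.332 CPM in MPP3 WT and 0.81 ± 0.471 CPM in MPP4 WT, with log2 fold changes of -5.45 ± 0.64 and -5.43 ± 0.63 (edgeR adjusted p = 2.65e-05 and 8.56e-06). Cpne2 fell from 225 ± 24.2 CPM in LT-HSC WT to 95 ± 16.7 CPM in MPP4 WT (edgeR adjusted p = 2.3e-06), and Cpne3 fell by 0.38 (edgeR adjusted p = 0.046). Cpne5 had 0 reads in all 3 LT-HSC WT libraries, where 3 reads over the group would be 0.0312 CPM, and 2.64 ± 0.329 CPM in MPP3 WT and 2.71 ± 0.43 CPM in MPP4 WT, at least 84.6-fold and 86.9-fold higher. Of the partners of Anxa6, Rasa1, a Ras GTPase-activating protein, fell in MPP3 by 0.37 and in MPP4 by 0.45 against LT-HSC (edgeR adjusted p = 0.0397 and 0.0085). The MPP3 call of Rasa1 was lost without any 1 LT-HSC WT library or without MPP3 WT 1 or WT 3, and its MPP4 call without LT-HSC WT 1. Prkca, a protein kinase C that Anxa6 brings to the membrane, had 37.5 ± 7.24 CPM in LT-HSC WT and 63.9 ± 29.4 CPM in LT-HSC KO and was not called (0.77 ± 0.3, edgeR adjusted p = 0.358).

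Over the 18 libraries the members varied along a few shared lines. Log2 CPM of Anxa2 went with that of Anxa3 (Pearson r = 0.88), Anxa6 (0.79) and Anxa1 (0.72), and that of Anxa5 with Anxa7 (0.86). Anxa5 ran against Anxa6 (-0.8) and Anxa3 (-0.75). Anxa4 and Anxa11 had no r beyond 0.34 in size with any member. These values describe libraries that share populations and, with 3 mice per genotype, also share mice.

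By the same measure the genes most like each member were found among all genes tested. For Anxa2 they included Rtn4r and Cd48 (r = 0.978 and 0.976), of which Cd48 encodes a marker of the sorting gate. For Anxa5 they were Cd9, Scarf1 and Tie1 (0.974, 0.97 and 0.967), for Anxa3 Rnpep, Alas1 and Umps (0.955, 0.95 and 0.949), and for Anxa6 Nfam1, Themis2 and Parp8 (0.938, 0.931 and 0.927). Anxa7 was most like Def8, Myo1d and Htr2a (0.938, 0.938 and 0.934) and Anxa1 most like Mc5r, Vim and Dnajc6 (0.893, 0.882 and 0.869). Anxa11 (Nrtn and Ppp1r11 among them, 0.84 and 0.769) and Anxa4 (Gm3235, Pip4k2c and Gm43362, 0.775, 0.774 and 0.766) had weaker neighbours. The sorted population is common to all these libraries, so genes that differ between populations resemble each other by this measure.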

How the data were processed

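Per the labels' protocols, RNA came from 10000 to 40000 cells, and libraries were made with SMART-Seq v4 and Nextera XT, with 12 cycles in each amplification and no molecular identifiers mentioned. Per the submitters' processing notes, bcl2fastq 2.17.1.14, DESeq and mm10 were used. The sources used here do not name the aligner, annotation or strand setting. The authors deposited raw read counts per gene, per the file headers, and these counts were tested. The authors also deposited a normalized signal (counts over size factors of 0.8118 to 1.7233), log2 fold changes and p-values with adjusted p-values of KO against WT, and median transcript lengths in bases.

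All 18 libraries entered 1 quasi-likelihood fit (edgeR 4.0.16, R 4.3.3) with a mean for each of the 6 groups, after filterByExpr (16325 genes) and TMM scaling, with Benjamini-Hochberg adjustment over all genes within each contrast at 0.05. The common dispersion was 0.164. Standard errors were obtained by dividing log2 fold changes by the root of the F statistic, and log2 CPM used a prior count of 2. The procedure was tested on simulated data. Alternatives were DESeq2 1.42.0, voom of limma 3.58.1 with genotype and number as a random block (correlation 0.188), no filter, no TMM, replicate blocks, the compared groups alone and libraries left out. The members and lists were chosen with earlier results of these data known. All 8 members were named, Anxa9, Ikzf2, called list genes or up to 1 with the smallest p, and the 3 genes most like each member, of which some are not reported here.

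The labels number the libraries 1 to 3 and do not say that a number stands for 1 mouse. With 3 mice per genotype, libraries of different populations share mice. The main fit has no term for the mouse, so its p-values between populations leave this sharing out. No pair of libraries was identical (0 pairs). Precision rests on 21053050 to 45410959 reads per library and 3 mice per group, and the labels name no batch or date.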

Additional observations from a re-analysis of the deposited data

How the results depend on the processing

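Of 672 values under alternatives for the 48 log2 fold changes of the members, 593 kept direction and side of the threshold, 35 lost a call, 4 gained one and 40 changed sign without a call. In LT-HSC KO the count of called annexins went from 1 to 0 with the compared groups alone (Anxa6 -0.77, edgeR adjusted p = 0.232), without WT 2 and WT 3, with libraries 2 and 3 alone, and without any 1 library. In MPP3 against LT-HSC it was 5, and 2 (Anxa2 and Anxa3) without LT-HSC WT 2 and WT 3, without MPP3 WT 1, WT 2 and KO 1, or with libraries 2 and 3 alone, and 2 to 4 without 1 library. In MPP4 against MPP3 it was 1, then 2 (Anxa1 and Anxa5) with genotype and number as a replicate block (edgeR adjusted p = 0.00671 for Anxa1), DESeq2 or limma voom, 0 without the 3 MPP3 libraries or with libraries 2 and 3 alone, and 1 to 2 without 1 library. The replicate blocks changed no other count of annexins, and moved the genes called in LT-HSC KO from 10 to 20. Deviations of same-numbered libraries of a genotype correlated at 0.041 to 0.182 between populations (9 of 18 pairs over 0.1), and all 18 libraries correlated best with their own number, a hint from the data and not from the design. Across genotypes a shared number gave 0.008 to 0.097 within a population and 0.015 to 0.11 between populations. The KO effect difference of Anxa6, MPP4 minus LT-HSC, passed by DESeq2 at 0.79. The use of libraries 2 and 3 alone, and the left-out libraries in the comparisons they were not planned for, were added after the data were seen; the cause of each change was not tested. All genes called in LT-HSC KO numbered 10, and 2 to 184 under the alternatives, with 184 by DESeq2. They numbered 1 and 2 in MPP3 and MPP4 KO, and 35 and 36 by DESeq2. Between WT populations they were 2831, 4435 and 786, with ranges of 1127 to 4157, 2988 to 5798 and 214 to 1189.
Values that changed sign were small and never called. For Anxa4 in LT-HSC KO they were 0.0001 with the number as a replicate block, 0.03 by limma voom and 0.12 with libraries 2 and 3 alone, which also gave -0.31 for Anxa3 there and, in MPP4 KO, 0.05 for Anxa4, 0.05 for Anxa7 and -0.02 for Anxa11. In MPP3 against LT-HSC, Anxa11 stood at -0.004 without the filter, -0.03 without TMM, -0.02 by DESeq2, -0.01 without LT-HSC WT 2 and WT 3, -0.03 without the 3 MPP3 libraries and -0.0008 with libraries 2 and 3 alone. Anxa4 stood there at -0.22 and -0.1 without these LT-HSC and MPP3 libraries, and at -0.08 in MPP4 against LT-HSC without the former.
Without 1 library the ranges in LT-HSC KO were -0.11 to 0.43 for Anxa3 and -0.11 to 0.17 for Anxa4. In MPP3 KO they were -0.07 to 0.17 for Anxa1, -0.13 to 0.03 for Anxa2, -0.61 to 0.03 for Anxa3, -0.06 to 0.15 for Anxa4 and -0.04 to 0.02 for Anxa7. In MPP4 KO they were -0.82 to 0.09 for Anxa3, -0.06 to 0.12 for Anxa6 and -0.03 to 0.2 for Anxa11. Between WT populations they were -0.04 to 0.26 for Anxa4 and -0.004 to 0.05 for Anxa11 in MPP3 against LT-HSC, -0.003 to 0.2 for Anxa1 in MPP4 against LT-HSC, and -0.33 to 0.2 for Anxa3 in MPP4 against MPP3.
Fits that leave out LT-HSC WT 2 and WT 3, or the 3 MPP3 libraries, hold 1 library in a WT group and take its spread from the other groups. Counting error was largest for Anxa3, with 82 reads in its shallowest library. With 3 mice per group, modest changes of other annexins may have gone uncalled.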
